A study of Mus musculus with 20 samples.

Results

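Interferon-stimulated genes are described here in the epididymal white adipose tissue (eWAT) of lean, obese and SZ-A-treated mice. The genes were taken from a fixed list of known interferon targets, and 49 of the 49 listed genes were found among the 14776 genes of the expression table. Of these, 39 were grouped as type I type, the antiviral and signalling genes typical of interferon alpha and beta, and 10 as gamma type, the guanylate-binding proteins (GBP) and immunity-related GTPases (IRG) typical of interferon gamma. Irf1 and Ubd, which interferon gamma also induces, were counted with the type I type. SZ-A is a preparation of alkaloids from Ramulus Mori (Sangzhi), the mulberry twig. Messenger RNA from 20 male C57BL/6J mice, 6 weeks old when the diets began, was sequenced as paired-end reads. The 6 NC mice received a maintenance feed and no high-fat diet, the 7 HFD mice a high-fat diet with saline by gavage, and the 7 SZ-A mice the same high-fat diet with SZ-A by gavage at 400 mg per kg each day. Gavage filled the last 6 of 20 weeks, after 14 weeks of diet alone, and all mice were fasted overnight before sampling. The labels give no transgene or deletion, and the maintenance feed is not described as matched to the high-fat diet in its other nutrients.

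Interferons are secreted proteins that warn cells of infection. Interferon alpha and beta bind the receptor chains Ifnar1 and Ifnar2, the kinases Jak1 and Tyk2 are activated, and a complex that holds Stat2 and Irf9 binds a promoter element named the interferon-stimulated response element (ISRE). Interferon gamma signals through Ifngr1, Ifngr2, Jak1 and Jak2 to factors that bind the gamma-activated site (GAS), and Irf1 induced in this way also binds ISRE-like elements. In obese adipose tissue, macrophages, lymphocytes and adipocytes can all express interferon targets, and bulk RNA holds the sum of them. A lower value in such RNA cannot tell fewer cells of a type from less RNA per cell.

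The promoters of the members were compared before their values. RefSeq windows (GRCm38.p6) of the 250 bases before the gene start were at hand for 37 members, 29 of type I type and 8 of gamma type. Both strands were searched for the ISRE core, GAAA and GAAA with any 2 bases between them, and for the GAS core, TTC and GAA with any 3 bases between them. Tandem ISRE cores may overlap. An ISRE core lay in the window of 17 of the 37 members, against 3.46% of 27025 genes with a window. By class, 7 of 8 gamma type and 10 of 29 type I type members held it. A GAS core lay in 11 of the 37, 4 of gamma type and 7 of type I type, against 8.13% of all genes. The stretches below are the 120 bases before the start of 8 members, written on the strand of the gene, with matches to either core in capitals. Isg15 and Ifit1 stand for the classical type I targets, Gbp2 and Igtp for the gamma type, and the remaining 4 are the members with the widest differences between groups. ISRE cores lay within the stretches of Isg15, chr4:156200819-156200938 on the minus strand, and Ifit1, chr19:34640769-34640888. An ISRE core also lay within those of Gbp2, chr3:142620543-142620662, and Igtp, chr11:58199436-58199555, in Igtp with a GAS core next to it. The last 3 stretches are on the plus strand. The stretch of Oas1a, chr5:120907526-120907645, held both cores and that of Ifi207, chr1:173741810-173741929, an ISRE core, both on the minus strand. Neither core was in the stretch of Ubd at chr17:37193772-37193891, and a GAS core alone was in that of Isg20 at chr7:78913304-78913423, both on the plus strand.
Isg15: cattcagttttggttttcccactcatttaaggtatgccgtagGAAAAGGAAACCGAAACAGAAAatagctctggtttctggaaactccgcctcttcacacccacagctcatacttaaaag
Ifit1: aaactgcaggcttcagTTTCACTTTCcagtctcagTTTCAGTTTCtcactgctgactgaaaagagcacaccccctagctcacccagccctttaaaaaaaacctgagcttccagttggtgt
Gbp2: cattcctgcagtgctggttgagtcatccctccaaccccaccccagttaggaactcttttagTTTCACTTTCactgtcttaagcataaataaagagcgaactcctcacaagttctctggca
Igtp: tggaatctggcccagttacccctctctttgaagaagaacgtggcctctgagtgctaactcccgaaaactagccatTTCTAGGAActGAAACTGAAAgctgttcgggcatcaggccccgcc
Oas1a: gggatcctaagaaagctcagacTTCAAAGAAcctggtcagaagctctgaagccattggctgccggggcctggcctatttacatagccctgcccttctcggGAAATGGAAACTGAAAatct
Ifi207: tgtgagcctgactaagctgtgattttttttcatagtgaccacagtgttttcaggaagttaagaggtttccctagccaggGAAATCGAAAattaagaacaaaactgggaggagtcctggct
Ubd: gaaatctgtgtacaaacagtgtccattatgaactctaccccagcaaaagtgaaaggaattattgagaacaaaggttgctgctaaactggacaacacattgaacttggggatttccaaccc
Isg20: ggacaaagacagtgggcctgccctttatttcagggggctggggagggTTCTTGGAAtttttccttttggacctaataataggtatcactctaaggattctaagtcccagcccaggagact

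Values are FPKM, reads scaled to gene length and to a size for each mouse, so that levels of different genes can be compared. That size, recovered from the FPKM, was not always above the reads on the tabled genes. It was 15406889 against 17216011 reads in HFD mouse 1, and 14573009 against 13567667 in NC mouse 6. The reason for this was not tested. The reads of a mouse on the tabled genes came to 13567667 in the shallowest and 19388628 in the deepest library, and a member had between 4 and 6826 reads in a mouse. For 23 members at least 1 mouse had fewer than 50 reads, Mx2, Gbp5 and Zbp1 among those with the fewest. A log2 fold change is the difference between group means of log2(FPKM + 1), which understates the change of low genes, and a member is called higher or lower where limma's adjusted p over all genes tested was under 0.05. Mice are named by group and the replicate number of the labels. One library stood apart: NC mouse 6 was the lowest of the NC mice in 34 of the 49 members, with a mean log2(FPKM + 1) of 7 adipocyte markers of 3.57 against 7.92 to 9.16 in the other NC mice, and of 6 endothelial markers of 1.15 against 4.01 to 5.69. Its mean of 5 epithelial markers (Krt18, Krt19, Cdh1, Spint2 and Adgrg2) was 7.67, the highest of all 20 mice. SZ-A mouse 5 was the highest of its group in 26 members and HFD mouse 1 the lowest of its group in 30.

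In HFD against NC, 22 of the 49 members were higher and 2 were lower, where 21.0% of the 14706 genes tested were higher and 20.1% lower. By role, the rises comprised 7 of 8 sensors, with the RNA editor Adar counted among them, and 4 of 6 OAS and nucleotide enzymes. They also comprised 4 of 11 effectors, 3 of 5 ubiquitin-like and ADP-ribosylation genes, 3 of 4 membrane proteins and 1 of 5 IRG genes. The 5 signalling factors and 5 GBP genes gave no call. The median log2 fold change was 0.70 over the type I type and 0.45 over the gamma type members, against -0.04 over all genes. Without single mice the type I type median ran from 0.53 to 0.80 and the gamma type median from 0.28 to 0.64. Of the 39 type I type members 21 were higher and 2 lower, and of the 10 gamma type members 1 was higher. The difference between the classes was not tested. Past a log2 fold change of 1.5 on the log2(FPKM + 1) scale, 5 members were higher (background 5.43%) and 1 was lower (background 2.54%). The study's methods set the same figure for fold changes from DESeq2, which are not on this scale. With a pseudocount of 0.1, Zbp1 (1.94), Rsad2 (1.75) and Parp14 (1.57) were also called past 1.5. In 12 members every HFD mouse was above every NC mouse (background 12.7%), and in 1 every HFD mouse was below (background 7.77%). Without NC mouse 6, 23 members were higher and 2 lower.

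**Figure D1:**
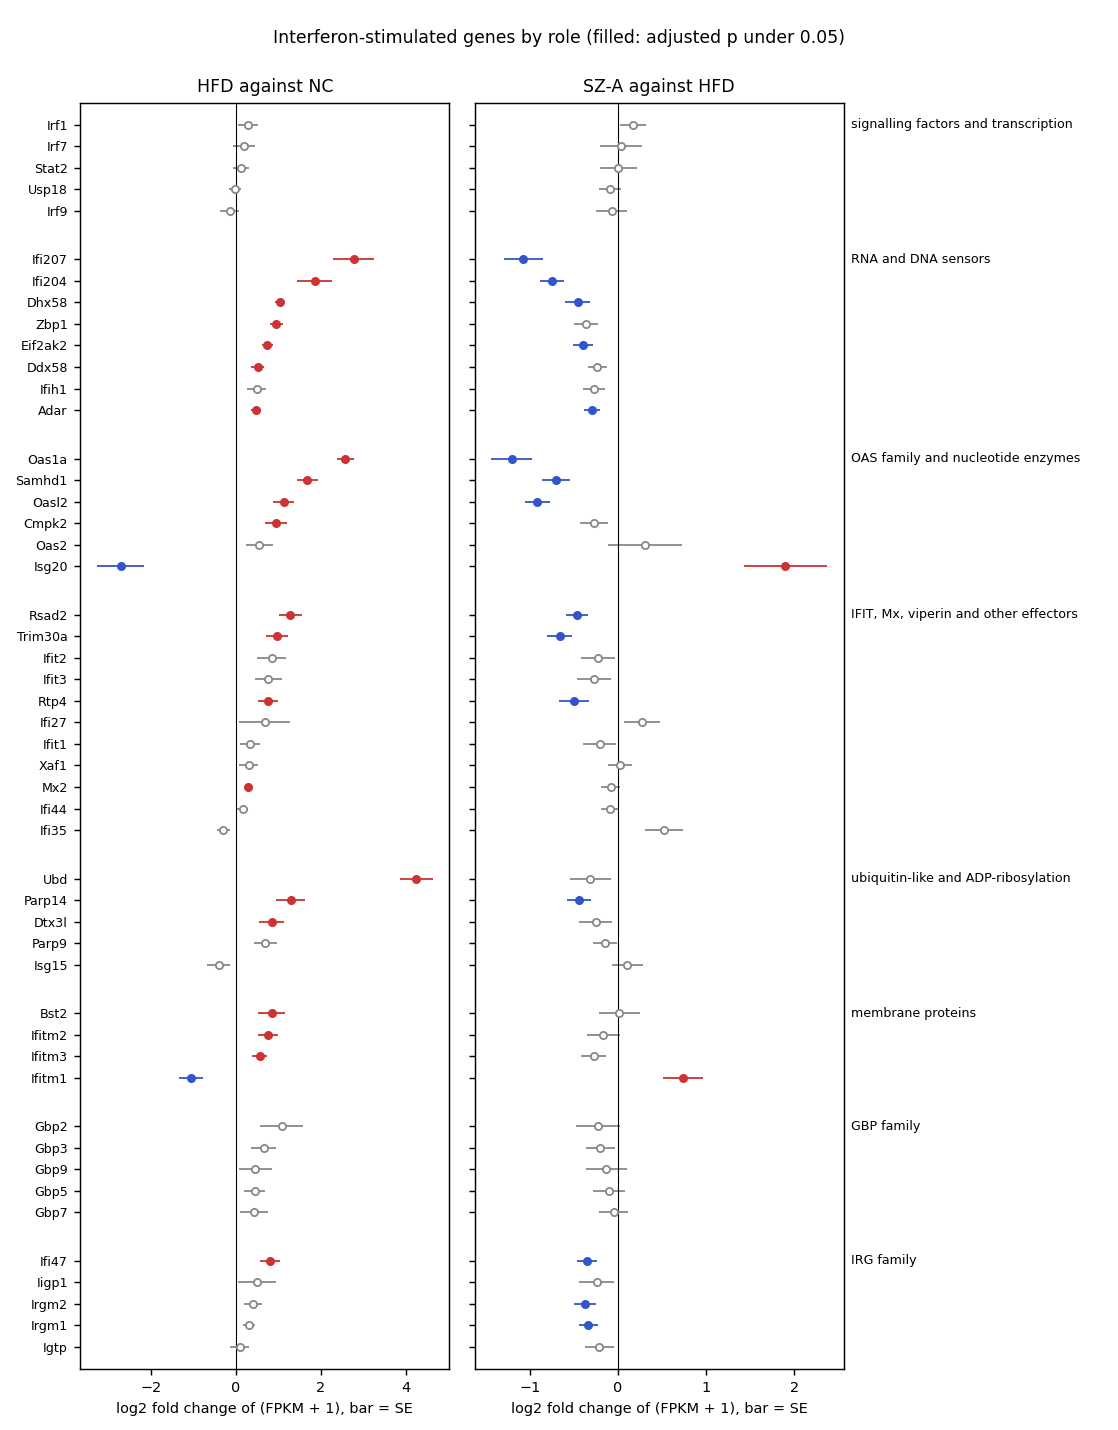
Log2 fold change on the log2(FPKM + 1) scale of all 49 members, sorted by role, in HFD against NC (left) and SZ-A against HFD (right), with the SE of the limma fit as bars and filled points for an adjusted p under 0.05 (red higher, blue lower). Ubd at 4.25 and Isg20 at -2.71 lie at the ends on the left, Isg20 at 1.90 and Oas1a at -1.21 on the right, and the bars of the signalling factors lie near 0 in both.

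Ubd encodes FAT10, a ubiquitin-like modifier that targets proteins to the proteasome and is induced by interferon gamma and tumour necrosis factor. Its FPKM had a lowest, median and highest value of 0.811, 5.14 and 8.81 in NC, 54.7, 111 and 174 in HFD, and 63.7, 69.8 and 97.0 in SZ-A mice. Every HFD and SZ-A mouse was above every NC mouse, and the HFD and SZ-A ranges overlapped. The log2 fold change, HFD against NC, was 4.25 (SE 0.38, adjusted p = 1.69e-06 by limma, exact permutation p = 0.00117, two-sided, the smallest that 7 against 6 mice can give). It was the largest rise among the members.

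Oas1a makes the short 2-5A oligonucleotides that switch on RNase L when double-stranded RNA is present. Its FPKM ran from 0.874 through a median of 1.35 to 3.67 in NC, from 10.3 through 14.2 to 18.9 in HFD, and from 3.05 through 4.90 to 12.9 in SZ-A mice. HFD and NC did not overlap, and the SZ-A mice lay between, 6 of the 7 below every HFD mouse and SZ-A mouse 5 within the HFD range. HFD was 2.58 above NC on the log2 fold change (SE 0.20, adjusted p = 4.66e-07 by limma). Oasl2, a relative of the OAS enzymes, spanned 0.732 to 4.51 FPKM in NC mice, 4.22 to 7.33 in HFD mice and 2.16 to 4.30 with SZ-A, with medians of 1.94, 5.23 and 2.35. HFD mouse 1 alone lay within the NC and SZ-A ranges, and the log2 fold change, HFD against NC, was 1.12 (SE 0.24, adjusted p = 0.00217).

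Samhd1, which degrades the nucleotides that viruses need for DNA synthesis, rose from 7.35 ± 3.03 FPKM (SD, n = 6) in NC to 24.4 ± 4.63 (n = 7) in HFD, without overlap. Cmpk2, a mitochondrial nucleotide kinase that lies beside Rsad2 in the genome, rose from 2.02 ± 1.204 to 4.37 ± 0.806 FPKM. Oas2 was at 1.81 ± 1.52 in NC and 2.75 ± 0.989 in HFD and was not called. Isg20 fell and is described below, so that of the 6 OAS and nucleotide enzymes 4 were higher and 1 lower in HFD.

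The group of RNA and DNA sensors, in which the RNA editor Adar was counted, gave 7 rises among 8 genes. Ifi207 and Ifi204, neighbours on chromosome 1 in the family of DNA-binding HIN proteins, had the largest. Ifi207 ran from 0.702 through a median of 7.90 to 25.5 FPKM in NC, from 36.04 through 50.2 to 74.5 in HFD, and from 18.9 through 19.6 to 41.6 in SZ-A mice. All HFD mice were above all NC mice, while NC mouse 3 reached into the SZ-A range and SZ-A mouse 5 and SZ-A mouse 6 into the HFD range. The log2 fold change, HFD against NC, was 2.78 (SE 0.48, adjusted p = 5.05e-04). Zbp1, a sensor of left-handed nucleic acids that can start necroptosis, ran from 0.0972 through 0.397 to 0.812 in NC, from 1.195 through 1.85 to 2.81 in HFD, and from 0.728 through 1.03 to 1.83 in SZ-A mice. HFD and NC did not overlap for Zbp1 (log2 fold change 0.96, SE 0.15, adjusted p = 1.88e-04), though its lowest mice had few reads.

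Among the cytosolic RNA helicases, Dhx58 (LGP2) rose from 1.60 ± 0.274 to 4.40 ± 0.821 FPKM and Ddx58 (RIG-I) from 3.67 ± 0.962 to 5.55 ± 0.622, both without overlap. Ifih1 (MDA5) was at 3.12 ± 1.502 and 4.41 ± 0.541 and was the sensor without a call. Eif2ak2, the kinase PKR that stops translation on double-stranded RNA, rose from 3.66 ± 1.01 to 6.65 ± 0.640, and Adar, which edits such RNA, from 3.32 ± 0.435 to 5.02 ± 0.714. Neither overlapped between NC and HFD. The log2 fold change was 0.74 for Eif2ak2, 0.48 for Adar and 0.51 for Ddx58, below those of the other called sensors.

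Among the 11 effectors, 4 were higher in HFD. Rsad2 (viperin), a radical SAM enzyme that makes a chain-terminating nucleotide, went from 2.38 ± 1.51 to 6.499 ± 0.945 FPKM, Trim30a from 5.15 ± 2.79 to 9.995 ± 1.48, and Rtp4 from 4.24 ± 1.74 to 7.65 ± 2.03. Mx2 was called at under 1 FPKM in every NC and HFD mouse. The IFIT genes, whose proteins bind RNA with foreign ends, were not called: Ifit1 ran from 0.775 through 2.94 to 5.16 FPKM in NC, from 2.25 through 3.67 to 4.79 in HFD and from 1.88 through 3.21 to 5.92 in SZ-A mice. The NC range of Ifit1 held the whole HFD range, and its log2 fold change was 0.33 (95% interval -0.19 to 0.85, adjusted p = 0.29). Ifit2 and Ifit3 were at 3.03 ± 1.82 and 5.83 ± 2.52 FPKM in NC and 5.59 ± 1.59 and 9.79 ± 2.48 in HFD, both without a call, as were Ifi35, Ifi44, Xaf1 and Ifi27. Ifi27 was among the most abundant members, at 110 ± 63.0 FPKM in NC and 127 ± 25.2 in HFD.

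Isg15, the ubiquitin-like protein that is attached to other proteins and is a standard marker of type I interferon, was not called. It ran from 5.70 through 8.38 to 24.4 FPKM in NC, from 4.46 through 7.54 to 9.72 in HFD, and from 5.46 through 7.91 to 12.1 in SZ-A mice. The ranges overlapped, with NC mouse 2 far above the rest, and the log2 fold change, HFD against NC, was -0.41 (95% interval -0.98 to 0.17, adjusted p = 0.24). In the same role group, Parp14, an ADP-ribosyltransferase, rose from 4.80 ± 2.87 to 11.3 ± 1.74 FPKM without overlap and its partner ligase Dtx3l from 4.96 ± 2.52 to 8.83 ± 2.12. Parp9, which overlaps Dtx3l on the other strand over 682 bases, was at 7.22 ± 3.02 and 11.3 ± 1.93 and was not called.

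The signalling factors gave no call in any of the 3 comparisons. Irf7, the factor that amplifies interferon alpha, ran from 2.05 through 4.50 to 8.16 FPKM in NC, from 2.46 through 6.25 to 7.80 in HFD, and from 3.30 through 5.28 to 12.8 in SZ-A mice, at a log2 fold change of 0.20 for HFD against NC (95% interval -0.36 to 0.76). Stat2 ran from 3.60 through 5.42 to 10.2 in NC, from 5.01 through 6.33 to 7.76 in HFD, and from 4.41 through 5.69 to 17.0 in SZ-A mice, at 0.12 for HFD against NC (95% interval -0.30 to 0.54). In both genes the NC range held all HFD mice and SZ-A mouse 5 was the highest of all 20. Irf1, the shared factor of both interferon types, ran from 3.81 through 9.91 to 14.6 in NC, from 8.34 through 12.1 to 13.3 in HFD, and from 8.13 through 14.7 to 16.5 in SZ-A mice, at 0.29 for HFD against NC (95% interval -0.20 to 0.78). Irf9 and Usp18, the deubiquitinase that removes Isg15 and dampens the receptor, were at 9.79 ± 4.94 and 1.72 ± 0.454 FPKM in NC and 8.08 ± 0.998 and 1.71 ± 0.488 in HFD. The intervals of Irf7, Stat2 and Irf1 do not exclude changes of the size called in other members, such as 0.48 for Adar.

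The membrane proteins split. The IFITM proteins sit in membranes and hinder the fusion of viruses. Ifitm3 rose from 148 ± 41.4 to 214 ± 35.4 FPKM and Ifitm2 from 78.7 ± 26.5 to 128 ± 20.8, and Bst2 (tetherin), which holds budding viruses on the cell surface, from 40.6 ± 18.3 to 65.2 ± 6.62. Ifitm1 fell: it ran from 1.38 through 6.17 to 8.61 in NC, from 1.42 through 1.82 to 3.66 in HFD, and from 2.39 through 3.17 to 7.61 in SZ-A mice. NC mouse 6 alone put the NC and HFD ranges of Ifitm1 in overlap, and the log2 fold change was -1.05 (SE 0.28, adjusted p = 0.00862). The Ifitm2, Ifitm3 and Ifitm1 genes lie side by side on chromosome 7, and how reads shared by such near copies were counted is not given in the sources used here, which also holds for the Ifit, Oas, Gbp and Ifi200 families.

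**Figure D2:**
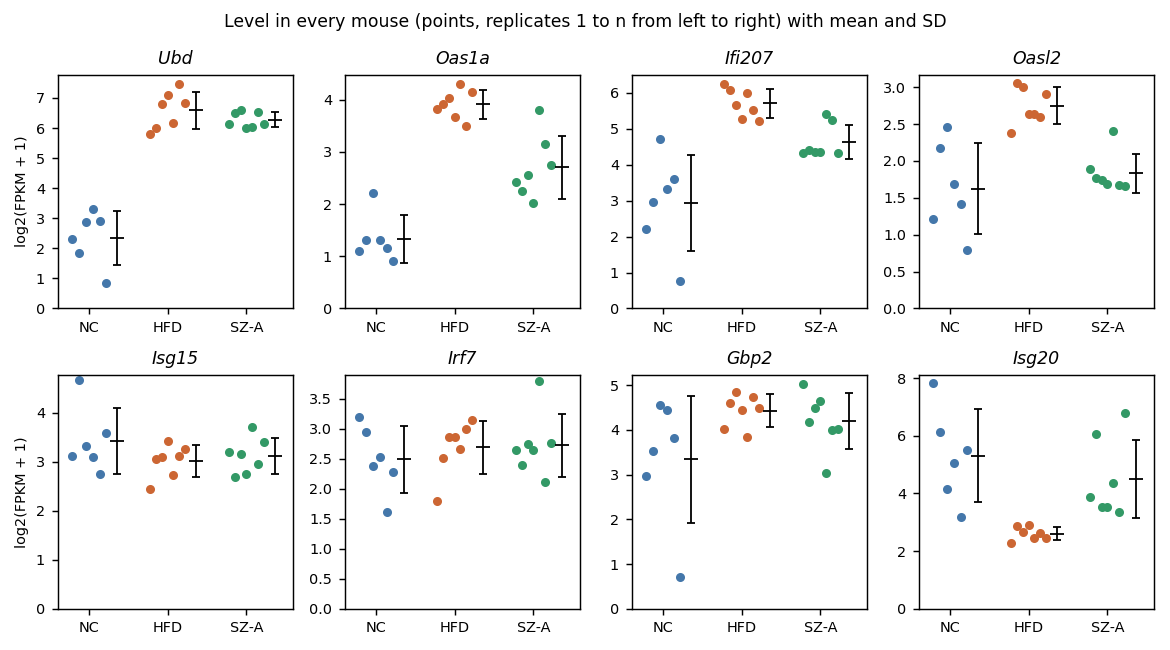
Log2(FPKM + 1) of 8 members in each of 6 NC, 7 HFD and 7 SZ-A mice (points by replicate number from left to right in each group, black bars mean ± SD). In Ubd, Oas1a and Ifi207 all HFD mice lie above all NC mice, in Isg15, Irf7 and Gbp2 the groups overlap, and in Isg20 the HFD mice, at 3.80 to 6.43 FPKM, lie below both other groups.

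Isg20, an exonuclease that degrades single-stranded RNA, was the member with the largest fall. It ran from 8.05 through 38.7 to 228 FPKM in NC, from 3.80 through 5.24 to 6.43 in HFD, and from 9.26 through 13.5 to 109 in SZ-A mice. Every HFD mouse was below every NC and every SZ-A mouse, and the log2 fold change, HFD against NC, was -2.71 (SE 0.56, adjusted p = 0.00171, exact permutation p = 0.00117). The 5 mice with the most Isg20 were also the 5 with the highest epithelial means. NC mouse 1, NC mouse 2 and NC mouse 6, with 228, 69.7 and 45.0 FPKM, had epithelial means of 5.98, 6.05 and 7.67, and SZ-A mouse 7 and SZ-A mouse 2, with 109 and 65.5 FPKM, had 5.35 and 5.89. The 7 HFD mice had epithelial means of 1.05 to 1.71, and SZ-A mouse 6, with 9.26 FPKM of Isg20 and an epithelial mean of 0.82, was still above every HFD mouse in Isg20. Isg20 did not follow that mean in every mouse: NC mouse 5, with an epithelial mean of 5.0, had 8.05 FPKM of Isg20, the lowest of the NC mice. Ifitm1 was highest in NC mouse 1 at 8.61 FPKM, but stood at 1.38 in NC mouse 6, which had the highest epithelial mean, and at 7.61 in SZ-A mouse 5, where that mean was 1.10.

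**Figure D3:**
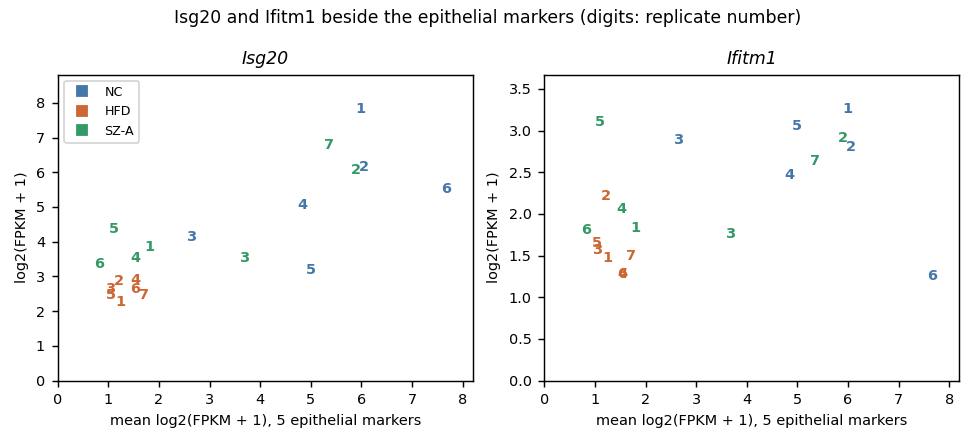
Isg20 and Ifitm1 in each of the 20 mice against the mean of 5 epithelial markers, both axes in log2(FPKM + 1), coloured by group. The 5 mice with the most Isg20, at 45.0 FPKM or more, have epithelial means of 5.35 or more, whereas Ifitm1 is 1.38 FPKM in the mouse with the highest mean.

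Only 5 of the 10 epithelial markers on the list were in the table, and all 5 were lower in HFD than in NC. With their mean as a covariate, 5 members were called in HFD against NC, namely Ubd, Oas1a and Dhx58 as higher and Ifitm1 and Iigp1 as lower, and the log2 fold change of Isg20 was -0.81 with an adjusted p = 0.62. The epithelial means of NC (2.66 to 7.67) and HFD mice do not overlap, so this covariate and the diet cannot be told apart.

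The gamma type genes gave 1 call in HFD against NC. The GBP proteins assemble on vacuoles of intracellular microbes and open them, and the IRG proteins act with them on the same membranes. Gbp2 ran from 0.627 through 11.8 to 22.6 FPKM in NC, from 13.4 through 21.5 to 27.9 in HFD, and from 7.21 through 17.1 to 31.3 in SZ-A mice. HFD and NC overlapped, NC mouse 6 lay far below the rest, and the log2 fold change of 1.08 had an SE of 0.50 and an adjusted p = 0.10, with an exact permutation p = 0.0408 before adjustment. The 5 GBP genes had log2 fold changes of 0.43 to 1.08. Gbp3, Gbp5, Gbp7 and Gbp9 were at 3.51 ± 1.92, 1.05 ± 0.720, 3.89 ± 2.52 and 4.74 ± 3.54 FPKM in NC and 5.59 ± 1.45, 1.67 ± 0.576, 4.79 ± 1.13 and 5.87 ± 2.05 in HFD. Gbp9 overlaps Gbp4 and Gbp8 in the annotation.

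Of the IRG genes, Ifi47 (IRG47) alone was called in HFD against NC, from 3.62 ± 1.62 to 6.60 ± 0.754 FPKM without overlap (log2 fold change 0.81, SE 0.23, adjusted p = 0.0128). Irgm1, a regulator that keeps other IRG proteins off the cell's own membranes, ran from 2.80 through 4.84 to 5.36 in NC, from 4.78 through 5.71 to 6.76 in HFD, and from 3.50 through 4.29 to 6.03 in SZ-A mice. In Irgm1 4 of the 7 HFD mice were above every NC mouse, with a log2 fold change against NC of 0.31 (SE 0.13, adjusted p = 0.072). Irgm2 was at 7.06 ± 3.10 and 9.08 ± 1.25, Igtp at 8.08 ± 2.81 and 8.49 ± 2.29, and Iigp1 at 5.59 ± 4.36 and 6.45 ± 1.88 FPKM in NC and HFD. Igtp and Irgm2 overlap on the same strand over 7974 bases, so their reads may not be fully separated. All 10 gamma type genes had a positive log2 fold change, as had 6844 of the 14706 genes tested, and 9 of the 10 were not called.

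SZ-A against HFD asked which of these values changed when SZ-A was given by gavage during the high-fat diet. Of the 49 members 15 were lower and 2 higher, where 13.3% of the 14695 genes tested were lower and 9.47% higher. The lower members were 5 sensors, 3 OAS and nucleotide enzymes, 3 effectors, 3 IRG genes and Parp14, and the 2 higher ones were Isg20 and Ifitm1, the same members that were lower in HFD than in NC. Both comparisons use the same HFD mice and are therefore not independent. The median log2 fold change was -0.24 over the type I type members, of which 12 of 39 were lower, and -0.22 over the gamma type members, of which 3 of 10 were lower, against 0.03 over all genes. Past a log2 fold change of 1.5, Isg20 was the one member (background 0.306% higher, 0.558% lower). It was also the one member whose groups did not overlap, and the background for this was 2.07% higher and 4.01% lower.

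Oas1a had the largest fall with SZ-A, from 14.3 ± 2.94 to 6.07 ± 3.39 FPKM (log2 fold change -1.21, SE 0.23, adjusted p = 0.00277, exact permutation p = 0.00175). Ifi207 fell from 53.1 ± 14.9 to 25.2 ± 9.80, at -1.08 (SE 0.22, adjusted p = 0.00395), and Oasl2 from 5.80 ± 1.17 to 2.62 ± 0.766, at -0.91 (SE 0.14, adjusted p = 8.06e-04). In each of the 3 genes SZ-A mouse 5 was the highest SZ-A mouse and lay within the HFD range. For Oasl2 the other 6 SZ-A mice, at 2.16 to 2.72 FPKM, were all below the lowest HFD mouse at 4.22. In a joint fit of all 3 groups Ifi207 was not called (adjusted p = 0.084 by limma), while Oas1a and Oasl2 were.

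Among the sensors 5 of 8 were lower with SZ-A. Ifi204 went from 18.2 ± 3.80 to 10.3 ± 1.67 FPKM, Dhx58 from 4.40 ± 0.821 to 2.97 ± 0.985, Eif2ak2 from 6.65 ± 0.640 to 4.85 ± 0.933, and Adar from 5.02 ± 0.714 to 3.88 ± 0.341, next to Ifi207. Ifi204 was not called in the joint fit (adjusted p = 0.14), and without single mice Dhx58 and Adar each lost their call in 8 of 14 fits. Zbp1 went from 1.79 ± 0.553 to 1.15 ± 0.359 FPKM, at a log2 fold change of -0.37 with an adjusted p = 0.060 (exact permutation p = 0.0187), and was not called. Ddx58 and Ifih1 were not called either, at 4.58 ± 0.790 and 3.53 ± 0.788 FPKM with SZ-A. Samhd1 fell from 24.4 ± 4.63 to 14.8 ± 4.14.

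Of the effectors, Trim30a (log2 fold change -0.66, adjusted p = 0.00544), Rtp4 (-0.50, adjusted p = 0.046) and Rsad2 (-0.47, adjusted p = 0.0131) were lower with SZ-A, as was Parp14 (-0.44, adjusted p = 0.0293). Trim30a was at 6.05 ± 1.77 FPKM, Rtp4 at 5.05 ± 1.28 and Rsad2 at 4.44 ± 0.829. None of the 4 was called in the joint fit, with adjusted p-values of 0.059 for Trim30a, 0.11 for Rtp4, 0.18 for Rsad2 and 0.30 for Parp14. Without single mice, Rtp4 lost its call in 12 of 14 fits and Parp14 in 7. Ubd, the member that differed most between HFD and NC, was at 103 ± 43.3 FPKM in HFD and 77.8 ± 14.1 in SZ-A mice, at a log2 fold change of -0.32 (95% interval -0.82 to 0.19, adjusted p = 0.34). Its interval overlaps that of Oas1a (95% interval -1.70 to -0.71), and the difference between the 2 genes was not tested. Ifit1 was at -0.21 (95% interval -0.60 to 0.19) and Isg15 at 0.10 (95% interval -0.27 to 0.48).

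The IRG genes Irgm2 (log2 fold change -0.37, adjusted p = 0.0441), Ifi47 (-0.35, adjusted p = 0.0314) and Irgm1 (-0.34, adjusted p = 0.0376) were lower with SZ-A, each with overlapping ranges. These calls, the 3 of the gamma type, were lost in the joint fit (adjusted p = 0.19, 0.23 and 0.072) and with voom on recovered reads (adjusted p = 0.094, 0.087 and 0.057). Without single mice Irgm2 lost its call in 11 of 14 fits, and Ifi47 and Irgm1 in 8 each. Irgm1 stood at 4.36 ± 0.823 FPKM with SZ-A against 5.75 ± 0.745 in HFD. The 5 GBP genes had log2 fold changes of -0.23 to -0.05 and no call, with Gbp2 at -0.23 (95% interval -0.77 to 0.31). Igtp and Iigp1 were at 7.11 ± 1.73 and 5.31 ± 1.96 FPKM with SZ-A and were not called. The signalling factors ranged from -0.09 to 0.17, with Irf7 at 0.03 (95% interval -0.48 to 0.55), Stat2 at 0.00 (95% interval -0.45 to 0.46) and Irf1 at 0.17 (95% interval -0.14 to 0.48).

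Isg20 rose from 5.15 ± 0.982 to 34.0 ± 38.6 FPKM with SZ-A (log2 fold change 1.90, SE 0.47, adjusted p = 0.0107, exact permutation p = 5.83e-04, the smallest that 7 against 7 mice can give). Ifitm1 rose from 2.03 ± 0.763 to 4.28 ± 2.16, at 0.73 (SE 0.23, adjusted p = 0.0316), with overlapping ranges, and lost its call in the joint fit (adjusted p = 0.084) and in 8 of 14 fits without single mice. Of the 5 epithelial markers 2 were higher with SZ-A, and with their mean as a covariate Isg20 was at 1.07 (adjusted p = 0.0343) and Ifitm1 at 0.59 (adjusted p = 0.11). In that fit 10 members were called, 8 lower and 2 higher, the latter being Isg20 and Ifi35. Leaving out single mice gave 9 to 17 called members, 9 without HFD mouse 3 or HFD mouse 7, 10 without HFD mouse 5 or SZ-A mouse 3, 11 without HFD mouse 2, SZ-A mouse 4 or SZ-A mouse 7, and 17 without SZ-A mouse 5.

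SZ-A against NC asked which members still differed from lean mice. Only 4 of the 49 were called, all higher and all counted with the type I type, Ubd among them, where 4.15% of the 14718 genes tested were higher and 0.455% lower. Ubd was at 4.82 ± 2.92 FPKM in NC and 77.8 ± 14.1 in SZ-A mice without overlap (log2 fold change 3.94, SE 0.33, adjusted p = 9.62e-05). Oas1a was at 1.37 (SE 0.28, adjusted p = 0.0127), Zbp1 at 0.59 (SE 0.14, adjusted p = 0.0239) and Dhx58 at 0.59 (SE 0.15, adjusted p = 0.0405). Without single mice Dhx58 lost its call in 10 of 13 fits and Zbp1 in 3. Ubd alone was past a log2 fold change of 1.5 (background 1.73% higher, 0.0544% lower), and Ubd and Dhx58 did not overlap (background 3.22% higher, 0.347% lower). Ifi207 was at 1.70 with an adjusted p = 0.068 and its NC and SZ-A ranges overlapped through NC mouse 3 alone. None of the 10 gamma type genes was called, and their median log2 fold change was 0.33, against 0.34 for the type I type and 0.00 for all genes. With Irf1 and Ubd counted as gamma type these medians were 0.36 and 0.32. Of the 49 members 42 had a positive value and 12 an unadjusted p under 0.05 by limma, against 7335 and 2803 of the 14718 genes tested. The intervals were wide, such as -0.30 to 2.01 for Gbp2 and -2.41 to 0.78 for Isg20, so that most members can be said neither to differ from NC nor to have returned to it. The count ran from 2 without NC mouse 1, NC mouse 5 or SZ-A mouse 3 to 8 without NC mouse 3, and 3 members were higher without NC mouse 6.

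**Figure D4:**
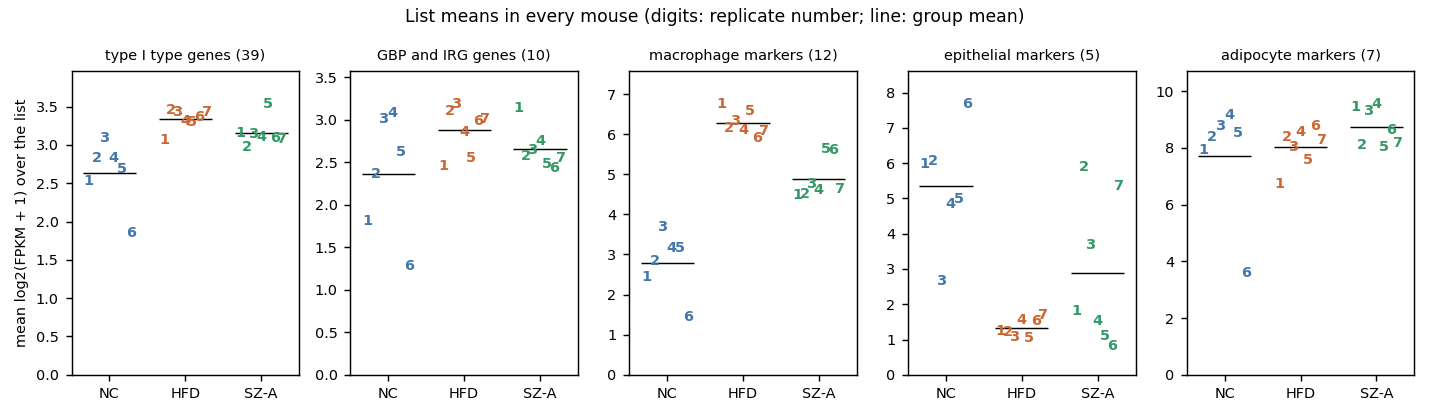
Mean log2(FPKM + 1) over the 39 type I type members, the 10 gamma type members (GBP and IRG genes) and the macrophage, epithelial and adipocyte markers in each mouse (digits are replicate numbers of the labels, lines group means). The type I type mean spans 1.84 to 3.09 in NC and 3.06 to 3.45 in HFD mice, the gamma type mean 1.27 to 3.08 and 2.46 to 3.18, and NC mouse 6 is the lowest for both.

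Marker genes of other cells moved with these groups. The 12 macrophage markers had a mean log2(FPKM + 1) of 1.43 to 3.68 in NC mice, 5.91 to 6.74 in HFD mice and 4.49 to 5.63 with SZ-A, without overlap between any 2 groups. Of these markers 11 were higher in HFD than in NC, 10 lower with SZ-A than in HFD and 9 higher with SZ-A than in NC. Adgre1, which defines mouse macrophages, was at 5.94 ± 4.13, 204 ± 41.9 and 59.6 ± 30.6 FPKM in NC, HFD and SZ-A mice. The part of macrophage RNA in the members' values was not tested. SZ-A mouse 5 and SZ-A mouse 6 had the highest macrophage means of their group, 5.63 and 5.61. They also had the highest Oas1a, Samhd1, Ifi207, Ifi204 and Trim30a of the SZ-A mice. The other members called lower with SZ-A did not have both of these mice at the top. Oasl2, for example, was at 2.19 FPKM in SZ-A mouse 6, near the lowest of its group. Eif2ak2 was at 4.70 and 4.33 in SZ-A mouse 5 and SZ-A mouse 6, at 4.90 to 5.91 in SZ-A mice 1 to 4, and lowest in SZ-A mouse 7 at 3.22. Parp14 was highest in SZ-A mouse 5 at 10.6 FPKM, with SZ-A mouse 1 at 9.97 above SZ-A mouse 6 at 9.28. The share of reads on mitochondrial genes also differed without overlap between NC (3.30% to 8.34%) and HFD mice (1.67% to 2.92%), with 1.67% to 11.6% in SZ-A mice, and its part in the values was not tested.

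Among the lymphoid sources of interferon gamma, the 7 T cell markers were all found and none was called in HFD against NC, with 1 lower with SZ-A. Of 6 NK cell markers 4 were found and 1 was higher in HFD. Of 6 markers of plasmacytoid dendritic cells, the professional makers of interferon alpha, 2 were found and none was called, and Siglech, which defines them, was at 0.353 ± 0.200, 0.153 ± 0.0752 and 0.289 ± 0.176 FPKM in NC, HFD and SZ-A mice. The interferon genes Ifnb1 and Ifng were looked for but not found in the expression table, so their levels could not be compared. Neutrophil and B cell lists had 2 genes found each, with both neutrophil genes higher in HFD and no B cell gene called.

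Other genes of the pathway, not among the members, were taken from a list of 35 of which 32 were tested. In HFD against NC 20 were higher and none lower, with a median log2 fold change of 0.67. Over all genes tested 21.0% were higher and 20.1% lower, with a median of -0.04. In SZ-A against HFD 14 were lower and none higher (13.3% and 9.47% of all genes). In SZ-A against NC 3 were higher, Irf5, Irf8 and Tlr7 (4.15% of all genes). The receptor chains of type I interferon rose, Ifnar1 from 9.01 ± 0.963 to 21.2 ± 2.70 FPKM and Ifnar2 from 12.7 ± 2.63 to 25.7 ± 1.21, and with SZ-A both were lower, at 12.9 ± 2.93 and 19.9 ± 3.34. For interferon gamma, Ifngr2 rose from 15.1 ± 17.5 to 26.5 ± 5.26 FPKM while Ifngr1, at 87.3 ± 42.5 and 85.0 ± 7.92, was not called.

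Of the receptor-bound kinases, Jak1 and Tyk2 rose in HFD and Jak2 was not called. The widest differences of the list lay in Irf5 and Irf8, factors abundant in myeloid cells, and in Tlr7, an endosomal sensor of single-stranded RNA. Irf5 was at 3.63 ± 2.14, 45.4 ± 11.3 and 21.9 ± 13.7 FPKM in NC, HFD and SZ-A mice, Irf8 at 1.77 ± 0.592, 12.3 ± 1.75 and 6.68 ± 4.09, and Tlr7 at 1.44 ± 1.11, 14.4 ± 3.46 and 5.24 ± 1.40. The DNA sensor Cgas and its adaptor Sting1 were higher in HFD than in NC and lower with SZ-A, at 0.493 ± 0.254, 1.79 ± 0.255 and 0.969 ± 0.365 FPKM and at 6.54 ± 3.50, 14.2 ± 2.83 and 8.77 ± 3.06. Myd88, the adaptor of Tlr7, Irf3, which is activated through Sting1, and Mavs, the adaptor of Ddx58 and Ifih1, were not called in HFD against NC.

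The calls were also counted by promoter element. Of the 17 members with an ISRE core in the window, 6 were higher in HFD than in NC and 6 lower with SZ-A than in HFD. Of the 20 with a window and no core, 10 were higher and 5 lower in the same comparisons. Over all genes tested, 21.0% were higher in HFD than in NC and 13.3% lower with SZ-A than in HFD. Isg15, with 3 overlapping cores, and Ifit1, with 2, were not called in any comparison, and Ubd, with none in its window, had the largest rise. These counts were not tested against each other, and a match in letters is not a measured binding site.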

How the data were processed

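Messenger RNA of eWAT was purified with poly-T beads and sequenced as paired-end reads. The authors aligned reads to GRCm38 with HISAT2, counted them with featureCounts 1.5.0-p3 (submitters' processing notes) and deposited FPKM for 14776 genes, each above 0 in all 20 mice. The annotation release, strand setting and handling of shared reads are not given in the sources used here. The labels give 6 NC, 7 HFD and 7 SZ-A mice, while the paper gives equal groups. Gene symbols and positions came from GENCODE M21 (14770 genes found). FPKM times exon length gave whole reads within 0.01 for 95.9% to 96.3% of values under 1000 reads in each mouse, from which depth was read. This share was required to be at least 0.95. No sequencing batch is given.

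Groups were compared 2 at a time with limma 3.58.1 in R 4.3.3 (lmFit, eBayes with trend) on log2(FPKM + 1), leaving out genes whose average in the 2 groups was under 0.1 FPKM, with Benjamini-Hochberg adjustment over all genes tested. All tests were two-sided, and the steps were tested on simulated data. Exact permutation tests used every regrouping of the mice. One gene of the pathway list is not reported here by name. Mice are the replicates, and p-values measure the spread between them. The members, classes, role groups, lists and the rule for genes described in full were chosen with earlier results of these data known. That rule took Isg15, Ifit1, Irf7, Stat2, Irf1, Gbp2, Irgm1 and Isg20, and in each comparison the 3 largest rises and falls among called members. Alternatives were a pseudocount of 0.1, a minimum average of 1 FPKM or none, 1 fit of all 3 groups, median-ratio scaling, voom on recovered reads, a replicate block, the mean of epithelial markers as a covariate, the fold threshold, and leaving out each mouse. Promoter windows came from RefSeq (GRCm38.p6). Usp18, Zbp1, Mx2, Parp9, Gbp9, Dhx58, Ifi27, Ifi204, Parp14, Rtp4 and Oas2 had no window there, and Iigp1 was left out. Tables were made with Python 3.11.15, pandas 2.3.3, NumPy 2.4.6 and SciPy 1.17.1, and plots with matplotlib 3.10.9.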

Additional observations from a re-analysis of the deposited data

Results flagged for a closer look

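Of 147 groups of mice tested (49 members in 3 groups), 21 had a single mouse far from the others, beyond Dixon's 95% critical value. Chance flags about 1 in 20 groups, and the members share their mice. SZ-A mouse 5 was the highest in 10 of them: Ifit1 at 5.92 FPKM, Irf7 at 12.8, Stat2 at 17.0, Oas2 at 21.8, Oasl2 at 4.30, Ifi35 at 30.9, Ifi44 at 0.773, Dhx58 at 5.13, Igtp at 10.8 and Rtp4 at 7.68. Its mitochondrial genes took 11.6% of the reads, the most of any mouse, and the part of this in the values was not tested. SZ-A mouse 1 was the highest for Gbp5 at 3.04 FPKM and for Iigp1 at 9.34, both of gamma type. NC mouse 6 was the lowest for Ifit3 at 0.983 and Dhx58 at 1.05. HFD mouse 1 was the lowest for Ifit3 at 4.80 and Rsad2 at 4.51 and the highest for Ifitm3 at 284.9. Isg15 in NC mouse 2 stood at 24.4, Isg20 in NC mouse 1 at 228, Oas1a in NC mouse 3 at 3.67 and Ifitm1 in HFD mouse 2 at 3.66, each the highest of its group.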

How the results depend on the processing

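In HFD against NC, the 24 called members became 5 with the epithelial covariate and 6 past a log2 fold change of 1.5, and 22 to 30 without single mice. With that covariate the median log2 fold change was -0.71 over the gamma type and -0.29 over the type I type members, and these log2 fold changes changed sign: Ifit1 -0.92, Isg15 0.17, Irf1 -0.75, Oasl2 -0.018, Rsad2 -0.33, Ifitm3 -0.18, Bst2 -0.41, Gbp2 -1.76, Parp14 -0.64, Dtx3l -0.68, Rtp4 -0.35, Trim30a -0.20, Ifi47 -0.48, Ifi204 -0.82, Ifi207 -0.38 and Cmpk2 -0.42. The covariate and the diet cannot be told apart. In SZ-A against HFD, the 17 called members became 7 in a joint fit of all 3 groups, 10 with the covariate, 1 past 1.5 and 9 to 17 without single mice, and voom on recovered reads gave 12. Stat2 was at -0.00839 with a pseudocount of 0.1 and -0.00821 with median-ratio scaling, and without single mice it ran from -0.21 to 0.079 and Irf7 from -0.14 to 0.14. In SZ-A against NC, the 4 called members became 8 in the joint fit, 1 with the replicate block, 1 with the covariate, 1 past 1.5 and 2 to 8 without single mice. With the covariate Ifit1 was at -0.35, Isg20 at 0.47, Irf1 at -0.014 and Oasl2 at -0.12, and without NC mouse 6 and SZ-A mouse 5, a choice made after seeing the data, Ifit1 was at -0.21 and Oasl2 at -0.0530. Without single mice Ifit1 ran from -0.081 to 0.28, Stat2 from -0.088 to 0.27, Irgm1 from -0.13 to 0.018 and Oasl2 from 0.043 to 0.38. The causes were not tested. Calls over all genes were counted in the main fit alone, so these changes in count cannot be set against those of genes in general. Other alternatives kept the counts within 1.5 times. Voom moved the median of all genes in HFD against NC from -0.04 to -0.15.

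The replicate numbers are shared between groups. Deviations of same-numbered mice correlated from -0.41 to 0.58, with both signs in each comparison. The labels do not say whether such mice share more than a number, and these correlations cannot exclude it. With the replicate block 18 members were called in HFD against NC and 12 in SZ-A against HFD. Few reads limit the precision of Mx2, Gbp5, Zbp1 and Ifi44, and in HFD against NC Bst2 lost its call in 8, Dtx3l in 5 and Ifitm3 in 3 of 13 fits without single mice.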

Other observations

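A further list of 52 interferon-stimulated genes outside the members had 47 genes tested. In HFD against NC 25 were higher and 2 lower (21.0% and 20.1% of all genes), with a median log2 fold change of 0.57 (all genes -0.04). In SZ-A against HFD 15 were lower and none higher (13.3% and 9.47% of all genes), with a median of -0.23 (all genes 0.03). In SZ-A against NC 3 were higher (4.15% of all genes). The list was written with earlier results of these data known. Oasl1 and Oas3, relatives of Oas1a and Oasl2, were higher in HFD and lower with SZ-A, as were the Schlafen genes Slfn8 and Slfn9, which act on RNA, and the galectin-binding protein gene Lgals3bp. The chemokine gene Cxcl10, a classical target of interferon gamma, was not called in HFD against NC and was lower with SZ-A than in HFD. Nmi, which binds Ifi35, was lower in HFD than in NC, at a log2 fold change of -0.61 (adjusted p = 0.0103), as was Ifitm10.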
